A study of Mus musculus with 12 samples.

Results

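The 10 genes described here encode the fatty acid elongases and desaturases of inguinal white adipose tissue (iWAT): Elovl1, Elovl3, Elovl5, Elovl6, Elovl7, Fads1, Fads2, Fads3, Scd1 and Scd2. They were chosen by name with earlier results of these data known, as were the lists of pathway genes below. All 10 were found among the 14159 genes with deposited values and passed the filter on low expression. PolyA RNA from whole iWAT of C57BL/6 mice was sequenced for 2 genotypes at 2 temperatures, and each of the 4 groups held 3 biological replicates. Atf4WT mice carry floxed alleles of Atf4, the gene of an effector of the integrated stress response, and Atf4AKO littermates carry the floxed alleles together with Adipoq-Cre, which is active in mature adipocytes of every fat depot. Mice of both genotypes stayed at RT (22 °C) or spent 24 h in the cold (5 °C). The age and sex of the mice behind these libraries are not given in the sources used here.

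Each library held between 25719476 and 29105147 reads on the listed genes, and the values are reads divided by a size factor of the library, called normalized counts below. Atf4 ranged from 4107 to 5669 normalized counts in Atf4WT and from 1469.7 to 1639 in Atf4AKO iWAT at RT, and from 5756 to 7644 and from 788 to 1578 after cold exposure. The genotypes did not overlap at either temperature. All 9 adipocyte markers examined were listed, with a sum between 1001306 and 1499683 normalized counts in a library, and 2 of them, Adipoq and Plin4, were lower after cold exposure in Atf4WT iWAT (log2 fold changes −0.60 and −0.71, limma adjusted p = 0.0148 and 0.0285). The 6 thermogenic adipocyte markers, Ucp1 among them, summed to 6811 to 9616 at RT and to 104404 to 165783 after cold exposure. All 6 were higher in each genotype at an adjusted p of 0.05 in limma, against 17.0% and 14.8% of all genes. Other cell types were unequal between the libraries. The 3 listed markers of mammary, skin and sebaceous epithelium summed to 380 to 767 at RT and to 550 to 1001 after cold exposure. Of these, 1 passed in Atf4AKO iWAT (limma adjusted p = 0.00519). The 10 listed B cell markers summed to 3857 to 13362 in cold-exposed Atf4WT iWAT against 85.0 to 334 in cold-exposed Atf4AKO iWAT, and to 108 to 3845 and 97.6 to 521 at RT. The 9 T cell markers summed to 703 to 5584 in cold-exposed Atf4WT and to 181 to 408 in cold-exposed Atf4AKO iWAT, and 5 muscle markers reached a sum of 76872 in 1 Atf4WT library at RT. The 6 listed macrophage markers summed to between 2425 and 24027, and all 6 had log2 fold changes below 0 after cold exposure in both genotypes (medians −0.64 and −1.03), none of which passed. The part of these cell types in the results below was not tested beyond the lymphocyte score. In bulk tissue, fewer cells of a type cannot be told apart from less RNA per cell.

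Fatty acids made by fatty acid synthase are lengthened in the endoplasmic reticulum by adding carbon pairs from malonyl-CoA. An ELOVL enzyme carries out the first, condensing step of each round, and each ELOVL enzyme prefers chains of certain length and saturation. Desaturases then place double bonds: the stearoyl-CoA desaturases (SCD) make monounsaturated fatty acids, while FADS1 and FADS2 act on polyunsaturated fatty acids. In brown and beige fat Elovl3 is a classic cold-responsive gene, whose product makes saturated and monounsaturated very long chains. Scd1 and Elovl6 are linked in white fat to the making of oleic acid for storage as triglyceride.

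Of the 10 genes, 6 lie on chromosome 19 in the mouse genome (mm10, GENCODE). Fads3 (10041569 to 10060110, plus strand), Fads2 (10062765 to 10101746, minus strand) and Fads1 (10182888 to 10196877, plus strand) form one cluster, in which Fads3 and Fads2 are 2654 bases apart. Scd2 (44293674 to 44306864, plus strand) and Scd1 (44394455 to 44407879, minus strand) are 87590 bases apart, and Elovl3 (46131897 to 46135694, plus strand) lies 1724017 bases beyond Scd1. The other elongase genes are on chromosome 3 (Elovl6, 129532355 to 129638495), chromosome 4 (Elovl1, 118428093 to 118432953), chromosome 9 (Elovl5, 77917364 to 77984519) and chromosome 13 (Elovl7, 108214404 to 108285683), all on the plus strand.

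The promoters of Elovl5 and Fads3 are shown because these genes passed the test in opposite directions after cold exposure in both genotypes. RefSeq promoter sequences (GRCm38.p6) matched 6 of the 10 genes. The 250 bases before the start of transcription are given 5′ to 3′ on the plus strand, chr9:77917115-77917364 for Elovl5 and chr19:10041298-10041547 for Fads3, with matches to the motifs searched in capitals.
Elovl5 promoter: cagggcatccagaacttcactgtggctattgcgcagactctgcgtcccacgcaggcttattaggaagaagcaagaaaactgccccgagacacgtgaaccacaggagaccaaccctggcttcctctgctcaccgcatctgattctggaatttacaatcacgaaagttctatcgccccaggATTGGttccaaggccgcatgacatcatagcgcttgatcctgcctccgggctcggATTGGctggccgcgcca
Fads3 promoter: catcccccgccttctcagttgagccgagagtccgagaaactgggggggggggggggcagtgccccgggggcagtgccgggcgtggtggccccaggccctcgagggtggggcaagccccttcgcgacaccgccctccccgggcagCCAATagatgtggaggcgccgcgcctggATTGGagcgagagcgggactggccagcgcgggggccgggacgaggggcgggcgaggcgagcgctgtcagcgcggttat
Each of the 2 windows held 2 matches to the CCAAT box (CCAAT, on either strand), a motif bound by NF-Y. In Elovl5 both matches were on the opposite strand and began 71 and 17 bases before the start. In Fads3, 1 match on the gene's own strand began 106 bases and 1 on the opposite strand 78 bases before the start. A CCAAT box was found in 33.8% of all 32851 promoter windows of this length. The cAMP response element (TGACGTCA, 1.55% of all windows), the C/EBP-ATF response element (TGATGNAA, 3.45%) and a sterol response element (TCACNCCAC, 1.05%), searched on both strands, had no match in the 7 windows of the 6 genes, and no matches overlapped. The windows of Elovl6, Elovl7 and Fads2 held none of the 4 motifs, and 1 of the 2 windows of Elovl1 held 1 CCAAT box.

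Levels of different genes were compared as normalized counts per kb of the transcript. Scd1 stood first in every group, with 182376 ± 53461 per kb (SD, n = 3) in Atf4WT and 144605 ± 27530 in Atf4AKO iWAT at RT. Scd1 alone took between 1.05% and 4.28% of the reads in a library. At RT in Atf4WT mice it was followed by Fads3 (2478 ± 455), Scd2 (2374 ± 694), Elovl6 (1451 ± 639) and Elovl5 (1134 ± 65.5), neighbours whose libraries overlapped. Fads1 (805 ± 54.3), Elovl1 (593 ± 43.3) and Fads2 (158 ± 10.2) came below and stood apart from their neighbours. Elovl3 (9.55 ± 7.49) and Elovl7 (7.26 ± 1.72) were the lowest and overlapped. After cold exposure Elovl3 moved from the 9th to the 4th place in both genotypes, next to Elovl6 and Elovl5, and Fads3 moved to the 6th.

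**Figure D1:**
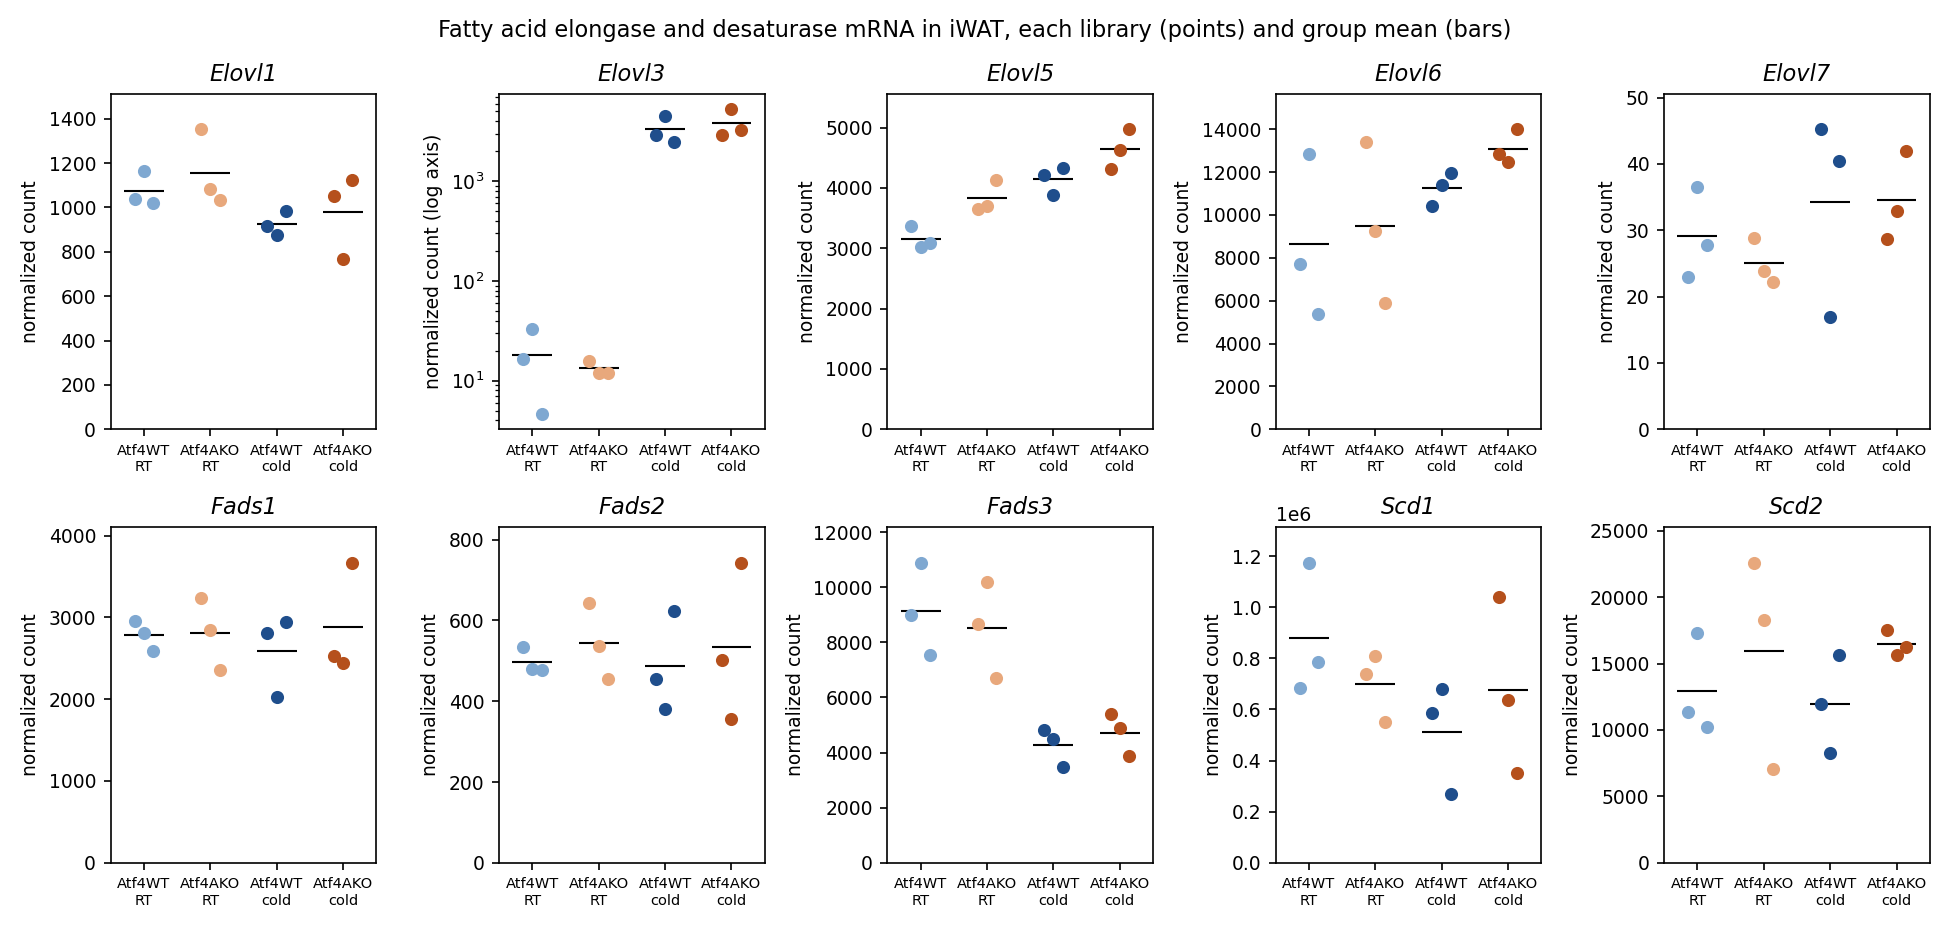
Normalized counts (y axis, linear from 0 except the log axis of Elovl3) of the 10 genes in the 12 libraries by group (x axis), with points for libraries and bars for the mean of 3. Elovl3 lies between 4.64 and 32.7 at RT and between 2472 and 5324 after cold exposure, and Fads3 lies lower after cold exposure in both genotypes without overlap.

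The first question was how cold exposure changed these genes in the presence and in the absence of Atf4 in adipocytes. In Atf4WT iWAT 3 of the 10 genes passed an adjusted p of 0.05 in limma, with Elovl3 and Elovl5 higher and Fads3 lower after cold exposure. Of all 13404 genes tested, 31.9% passed, 17.0% higher and 14.9% lower, so the count among the 10 was near the background. In Atf4AKO iWAT the same 3 genes passed in the same directions, against 25.9% of all genes, 14.8% higher and 11.0% lower. After rescaling of the libraries to a common 75th percentile, the calls over all genes in Atf4AKO iWAT went from 1988 higher and 1479 lower to 1715 higher and 1975 lower. The libraries of the 2 temperatures did not overlap for 5 of the 10 genes in Atf4WT and 3 in Atf4AKO iWAT, against 46.8% and 41.7% of all genes. The DEG threshold of this study (fold change over 1.5 and unadjusted p under 0.05) was applied here to the fold changes and p-values of limma. By it Elovl3 and Fads3 passed in each genotype, against 21.2% and 17.2% of all genes. The median log2 fold change of the 10 genes was −0.09 in Atf4WT and 0.11 in Atf4AKO iWAT, where the medians over all genes were 0.00 and −0.03.

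Elovl3 (NM_007703) was nearly silent at RT. Its normalized counts in Atf4WT iWAT were 16.5, 32.7 and 4.64 at RT and 2932, 4557 and 2472 after cold exposure. In Atf4AKO iWAT they were 15.8, 11.9 and 12.1 at RT and 2938, 5324 and 3293 after cold exposure. Every cold-exposed library lay far above every RT library. On the log2 scale Elovl3 rose by 7.75 (standard error 0.52, limma adjusted p = 1.49e-05) in Atf4WT and by 8.04 (standard error 0.52, limma adjusted p = 1.00e-05) in Atf4AKO iWAT. The call held under all alternatives in both genotypes, with log2 fold changes from 7.04 to 9.20 and from 7.68 to 8.21.

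The rise of Elovl3 changed the make-up of the elongase transcripts. Per kb, Elovl3 made up 0.275% ± 0.175 (SD, n = 3) of the transcripts of the 5 elongases in Atf4WT iWAT at RT and 30.8% ± 7.52 after cold exposure. In Atf4AKO iWAT the shares were 0.195% ± 0.0142 and 31.3% ± 7.82. The summed level of the 5 elongases was 3195 ± 667 normalized counts per kb at RT and 5668 ± 480 after cold exposure in Atf4WT, and 3625 ± 645 and 6466 ± 584 in Atf4AKO iWAT. The sums of the cold-exposed and the RT libraries did not overlap in either genotype. With 3 libraries against 3 an exact permutation test cannot give a p below 0.1, so no test is given for these sums. The ratio of Elovl3 to Elovl6 per kb was 0.00586 ± 0.00280 at RT and 0.936 ± 0.309 after cold exposure in Atf4WT iWAT, and 0.00477 ± 0.00151 and 0.940 ± 0.357 in Atf4AKO iWAT.

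**Figure D2:**
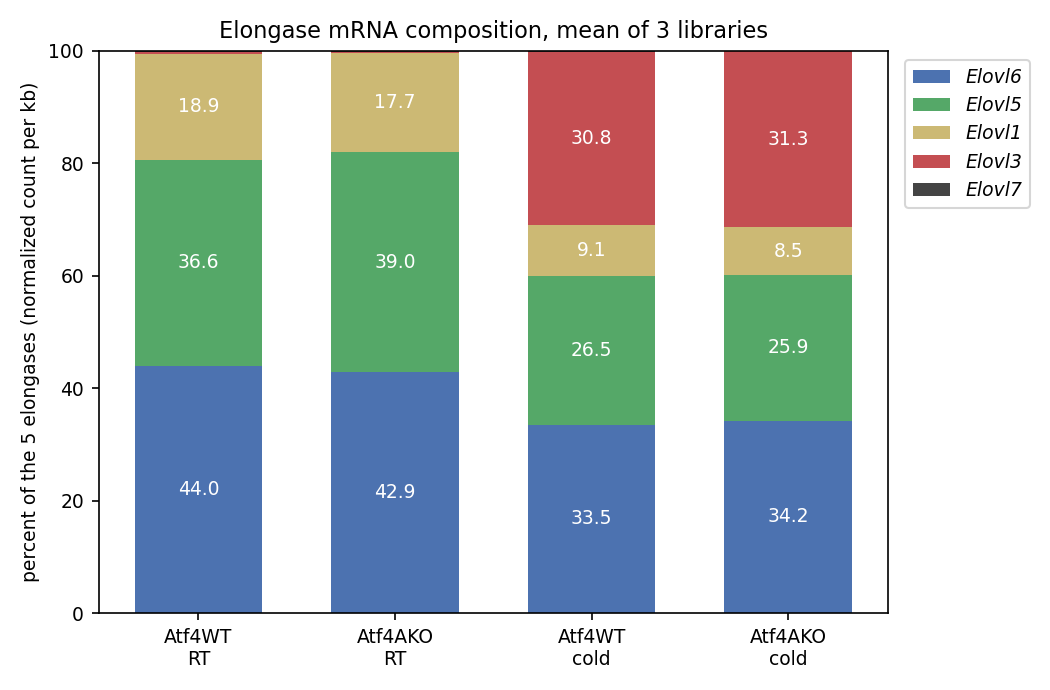
Share of each elongase (y axis, percent of the normalized counts per kb of the 5 elongases, mean of 3 libraries) in the 4 groups (x axis). Elovl3 is below 1% at RT and 30.8% and 31.3% after cold exposure in Atf4WT and Atf4AKO iWAT, next to Elovl6 with 33.5% and 34.2%.

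Elovl5 (NM_134255), an elongase of polyunsaturated chains, rose by much less. Its normalized counts in Atf4WT iWAT were 3362, 3018 and 3085 at RT and 4221, 3881 and 4333 after cold exposure. In Atf4AKO iWAT they were 3651, 3706 and 4129 at RT and 4309, 4635 and 4967 after cold exposure. Within a genotype every cold-exposed library was above every RT library, but cold-exposed Atf4WT and RT Atf4AKO libraries overlapped. The log2 fold change was 0.39 (standard error 0.08, limma adjusted p = 0.00483) in Atf4WT and 0.28 (standard error 0.08, limma adjusted p = 0.0301) in Atf4AKO iWAT. Both are below the 1.5-fold threshold used for DEGs in this study. The Atf4AKO call was lost after 75th percentile scaling (0.22, limma adjusted p = 0.0725), in a model of only the 2 groups (limma adjusted p = 0.0759) and without Atf4AKO RT replicate 0 (limma adjusted p = 0.106), RT replicate 1 (0.0853), cold replicate 1 (0.0779) or cold replicate 2 (0.100).

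Elovl6 (NM_130450), which lengthens palmitate, the product of fatty acid synthase, did not pass the test. Its counts at RT were 7694, 12823 and 5394 in Atf4WT and 13392, 9251 and 5869.7 in Atf4AKO iWAT. After cold exposure they were 10437, 11392 and 11973 in Atf4WT and 12848, 12449.6 and 13991 in Atf4AKO iWAT. The RT libraries spread widely, with a coefficient of variation of 44.0% and 39.6%, and the cold-exposed libraries lay close together, with 6.88% and 6.11%. The log2 fold change was 0.47 (95% interval −0.20 to 1.15, limma adjusted p = 0.264) in Atf4WT and 0.54 (−0.14 to 1.22, limma adjusted p = 0.220) in Atf4AKO iWAT, so increases of more than 2-fold are within the intervals.

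Elovl1 (NM_019422), an elongase of saturated very long chains, ranged from 1019.9 to 1163 at RT and from 876 to 985 after cold exposure in Atf4WT iWAT. These libraries did not overlap, but the log2 fold change of −0.21 (95% interval −0.53 to 0.11) did not pass the test (limma adjusted p = 0.286). In Atf4AKO iWAT the ranges of 1034 to 1352 and 769 to 1125 overlapped, with a log2 fold change of −0.25 (−0.56 to 0.07, limma adjusted p = 0.232). Elovl7 (NM_029001) lay between 16.9 and 45.2 normalized counts in all 12 libraries, with log2 fold changes of 0.13 and 0.44 that did not pass (limma adjusted p = 0.806 and 0.395).

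**Figure D3:**
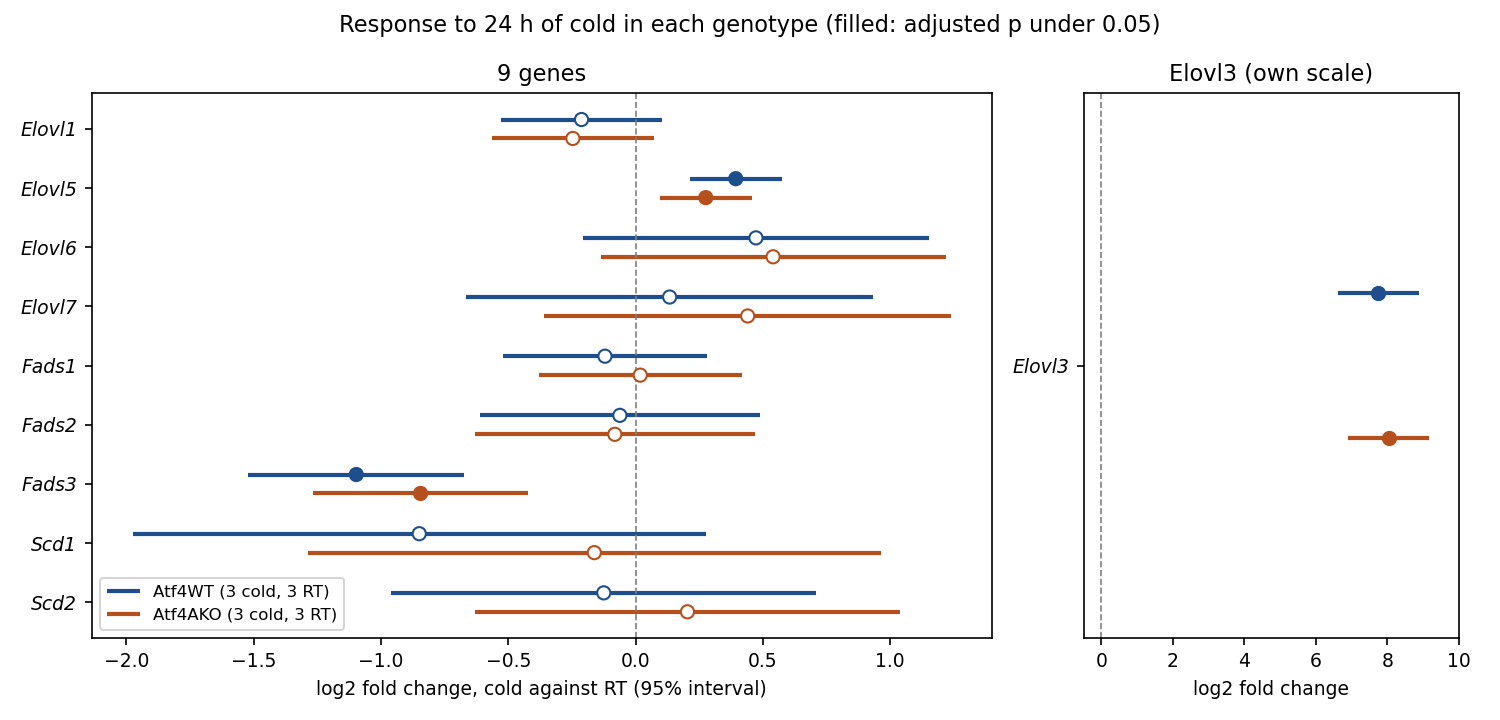
Log2 fold change of cold exposure against RT (x axis) of 9 genes in the left panel and of Elovl3 on its own scale in the right panel, with 95% intervals from limma. Filled points passed an adjusted p of 0.05: Elovl5 to the right and Fads3 to the left of 0, and Elovl3 at 7.75 and 8.04.

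Among the desaturases only Fads3 (NM_021890) passed the test after cold exposure, and it fell. Its product introduces a double bond into the sphingoid base of ceramides. The counts in Atf4WT iWAT were 8995, 10881 and 7538 at RT and 4806, 4509 and 3476 after cold exposure. In Atf4AKO iWAT they were 8677, 10178 and 6704 at RT and 5415, 4886 and 3864 after cold exposure. All 6 cold-exposed libraries lay below all 6 RT libraries. The log2 fold change was −1.10 (standard error 0.19, limma adjusted p = 0.00200) in Atf4WT and −0.84 (standard error 0.19, limma adjusted p = 0.00899) in Atf4AKO iWAT. With the mean log2 value of 19 B and T cell markers as a covariate, the Atf4WT value was −0.69 and the call was lost (limma adjusted p = 0.139). This lymphocyte score ranged from 3.78 to 7.14 at RT and from 7.20 to 9.61 after cold exposure in Atf4WT iWAT. These ranges did not overlap, so the fit separates the score from cold exposure poorly in Atf4WT iWAT. In Atf4AKO iWAT the score ranged from 3.87 to 5.20 and from 3.41 to 4.86, and the fall of Fads3 was called with the score in the model as well.

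The neighbours of Fads3 did not pass. Fads1 (NM_146094, the delta-5 desaturase) was at 2785 ± 188 (SD, n = 3) at RT and 2592 ± 492 after cold exposure in Atf4WT, and at 2815 ± 441 and 2878 ± 684 in Atf4AKO iWAT. Fads2 (NM_019699, the delta-6 desaturase) was at 497 ± 32.3 and 486 ± 124 in Atf4WT, and at 545 ± 94.6 and 534 ± 195 in Atf4AKO iWAT. The 95% intervals of the log2 fold changes of Fads1 ran from −0.52 to 0.28 and from −0.38 to 0.42, and those of Fads2 from −0.61 to 0.49 and from −0.63 to 0.47. Fads1 and Fads2 had the most similar profiles of any pair among the 10 genes over the 12 libraries, with a root mean square difference of 0.14 between their centred log2 values. Elovl1, on chromosome 4, was nearly as close, with 0.18 to Fads1 and 0.19 to Fads2. Genes that change little lie close together by this measure. The ratio of Fads3 to Fads1 per kb was 3.07 ± 0.486 at RT and 1.60 ± 0.488 after cold exposure in Atf4WT iWAT, and 2.85 ± 0.449 and 1.63 ± 0.555 in Atf4AKO iWAT.

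Scd1 (NM_009127), the main stearoyl-CoA desaturase of white fat, was both the most abundant and among the most variable of these genes. Its counts in Atf4WT iWAT were 683004, 1173380.2 and 787343 at RT and 588118, 678182 and 270396 after cold exposure. In Atf4AKO iWAT they were 738234, 807527 and 550427 at RT and 1041805, 637791 and 352705 after cold exposure. The Atf4WT groups were separated only by the small gap between 683004 and 678182, and the Atf4AKO groups overlapped. The log2 fold change was −0.85 (95% interval −1.98 to 0.28, limma adjusted p = 0.228) in Atf4WT and −0.16 (−1.29 to 0.96, limma adjusted p = 0.841) in Atf4AKO iWAT, and the latter was 0.24 without cold replicate 2. Scd2 (NM_009128), a related stearoyl-CoA desaturase, was at 12952 ± 3784 and 11958 ± 3681 in Atf4WT and at 15973 ± 8009 and 16472 ± 941 in Atf4AKO iWAT, with log2 fold changes of −0.12 (−0.96 to 0.71) and 0.20 (−0.63 to 1.04). Scd1 exceeded Scd2 per kb by a ratio between 19.5 and 92.6 in the 12 libraries. Only uniquely mapped reads were counted, so reads shared by the related Scd genes are not in these values.

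The second question was whether deletion of Atf4 in adipocytes changed these genes. After cold exposure none of the 10 passed an adjusted p of 0.05 in limma, where 0.0298% of all genes did, and none had an unadjusted p under 0.05. None passed the DEG threshold, which 6.40% of all genes passed. All 10 log2 fold changes of Atf4AKO against Atf4WT were above 0, with a median of 0.15, beside 7955 of all 13404 genes and a median of 0.05. These signs were not stable, since 8 of the 10 genes went below 0 under at least 1 alternative. The number above 0 was 5 with the lymphocyte score as a covariate, 6 without Atf4AKO cold replicate 2 and 7 without Atf4WT cold replicate 1. After cold exposure the score ranged from 7.20 to 9.61 in Atf4WT and from 3.41 to 4.86 in Atf4AKO iWAT, so the fit with it separates score and genotype poorly. In the same comparison all 9 adipocyte markers (median 0.18) and all 6 markers of thermogenic adipocytes (median 0.20) were above 0, and all 19 B and T cell markers were below 0. None of these markers passed an adjusted p of 0.05 in limma. All 10 B cell markers (median −5.57) and all 9 T cell markers (median −3.63) passed the DEG threshold, and no adipocyte or thermogenic adipocyte marker did. The part of these cell types in the values of the 10 genes was not tested. The libraries of Elovl6 and Scd2 did not overlap, with every Atf4AKO library higher, which was the case for 8.68% of all genes. The log2 fold change was 0.22 (95% interval −0.46 to 0.90, limma adjusted p = 0.831) for Elovl6 and 0.51 (−0.33 to 1.34, limma adjusted p = 0.650) for Scd2. For Elovl3 it was 0.21 (−0.92 to 1.35, limma adjusted p = 0.908), and for Scd1 0.37 (−0.75 to 1.5, limma adjusted p = 0.824), so that for both an increase of more than 2-fold was within the interval.

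At RT none of the 10 passed an adjusted p of 0.05 either, where 0.00746% of all genes did, and none passed the DEG threshold, which 0.463% of all genes passed. Elovl5 was the only one with an unadjusted p under 0.05. Its 3 Atf4AKO libraries lay above its 3 Atf4WT libraries, with a log2 fold change of 0.28 (standard error 0.08, unadjusted p = 0.00588, limma adjusted p = 1.00). Such an order of the libraries was seen for 3.32% of all genes. The log2 fold changes of the other 9 ran from −0.31 for Scd1 to 0.18 for Scd2.

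**Figure D4:**
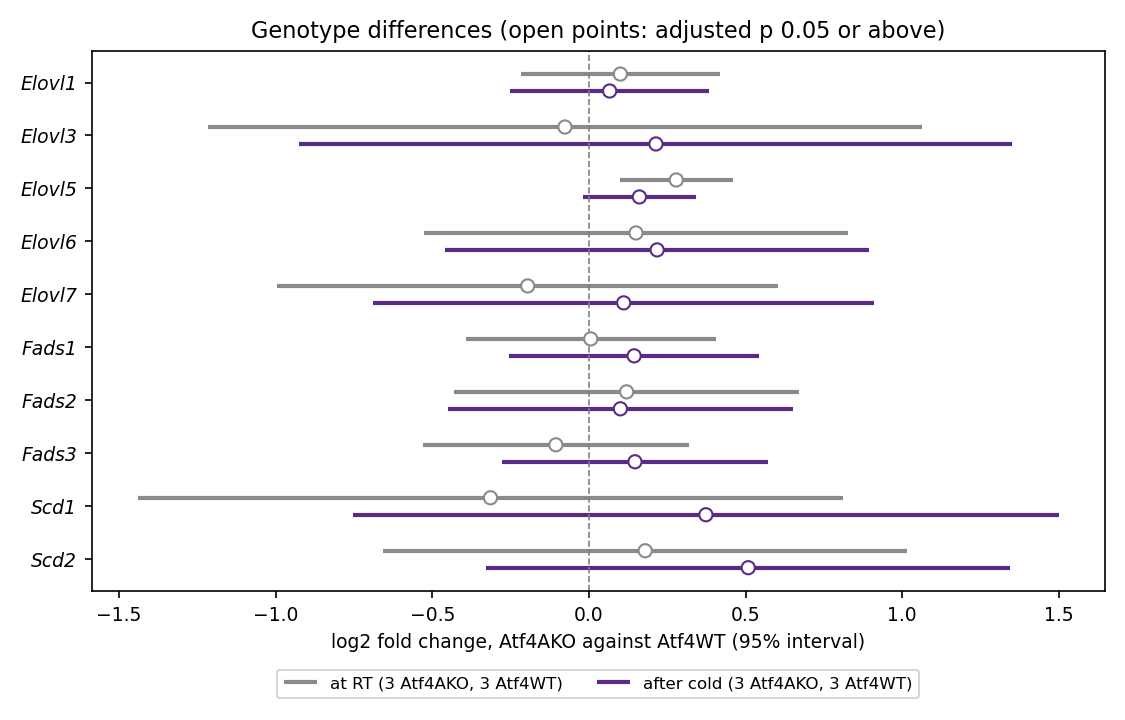
Log2 fold change of Atf4AKO against Atf4WT iWAT (x axis) of the 10 genes at RT and after cold exposure, with 95% intervals from limma and open points for adjusted p-values of 0.05 or above. Elovl5 at RT is the only value whose interval does not include 0.

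The cold responses of the genotypes were compared by their difference (interaction). None of the 10 genes passed, and none of the 13404 did in limma (0% of all genes), although 928 had an unadjusted p under 0.05 and DESeq2 called 128. The DEG threshold was passed by 4.63% of all genes and by none of the 10. The difference, Atf4AKO minus Atf4WT, was 0.29 (95% interval −1.32 to 1.90) for Elovl3, −0.12 (−0.37 to 0.14) for Elovl5 and 0.25 (−0.35 to 0.85) for Fads3 on the log2 scale. For Scd1 it was 0.69 (−0.91 to 2.28). With 3 libraries in a group these intervals leave room for sizeable differences in Elovl3 and Scd1, and least room in Elovl5.

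The elongases work in a cycle with a reductase, a dehydratase and a second reductase. Of the 6 such genes tested, 3 were higher after cold exposure in Atf4WT and 4 in Atf4AKO iWAT, where 17.0% and 14.8% of all genes were higher. Hsd17b12, the ketoacyl-CoA reductase of the cycle, was at 10172, 9024 and 6355 at RT and at 18304, 17422 and 16716 after cold exposure in Atf4WT iWAT, and at 10753, 12245 and 9108 and at 19598, 21682 and 25426 in Atf4AKO iWAT. Its cold-exposed libraries lay above all RT libraries, with log2 fold changes of 1.06 and 1.06 (limma adjusted p = 0.00121 and 0.00155). The hydroxyacyl-CoA dehydratase genes Hacd1 (0.51 and 0.81, limma adjusted p = 0.00319 and 0.000343) and Hacd3 (0.56 and 0.39, limma adjusted p = 0.00565 and 0.0337) rose in both genotypes. Hacd2 passed in Atf4AKO (0.57, limma adjusted p = 0.0179) and not in Atf4WT iWAT (0.30, limma adjusted p = 0.143), and the difference between these responses did not pass (limma adjusted p = 0.989). Tecr, the enoyl-CoA reductase that ends the cycle, had log2 fold changes of 0.07 and 0.12, and those of the dehydratase gene Hacd4 were −1.54 and −1.30, none of which passed.

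Desaturases receive electrons from cytochrome b5 and its reductase. Of the 5 cytochrome b5 and cytochrome b5 reductase genes tested, 1 passed in each genotype, against 31.9% of all genes in Atf4WT and 25.9% in Atf4AKO iWAT. This was Cyb5b, which rose in both genotypes (log2 fold changes 0.71 and 0.82, limma adjusted p = 0.00435 and 0.00245). Its product is the cytochrome b5 of the outer mitochondrial membrane, not of the endoplasmic reticulum. Cyb5a, the cytochrome b5 of the endoplasmic reticulum, had −0.26 and −0.12, and Cyb5r3, its reductase, −0.33 and −0.13, and neither passed.

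Of the 16 genes of fatty acid synthesis and its regulators, 7 rose and none fell in either genotype at an adjusted p of 0.05 in limma. Of all genes 17.0% were higher and 14.9% lower in Atf4WT, and 14.8% and 11.0% in Atf4AKO iWAT. Acacb, the mitochondrial acetyl-CoA carboxylase, rose by 1.44 and 1.20 on the log2 scale (limma adjusted p = 6.14e-05 and 0.000164). The transcription factor gene Mlxipl (ChREBP) rose by 1.04 and 1.19 (limma adjusted p = 0.00172 and 0.000977), and Ppara, a nuclear receptor of fatty acid oxidation, by 1.27 and 1.74 (limma adjusted p = 0.00371 and 0.000847). Thrsp and Mid1ip1, related regulators of lipogenesis, Insig1, a sterol-sensing brake on SREBP, and Nr1h3, a liver X receptor gene, also rose in both. The enzymes directly upstream of the elongases did not pass, with log2 fold changes of 0.57 and 0.48 for Fasn, 0.12 and −0.03 for Acaca and 0.92 and 0.59 for Acly. Nor did Srebf1 (0.35 and 0.28), Srebf2 (−0.01 and −0.11) or Pparg (0.04 and −0.11).

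Among 8 ceramide synthase and acyl-CoA synthetase genes, 2 were higher and 2 lower in Atf4WT, and 3 higher and 1 lower in Atf4AKO iWAT. Of all genes 17.0% were higher and 14.9% lower in Atf4WT, and 14.8% and 11.0% in Atf4AKO iWAT. The ceramide synthase gene Cers6 fell by 1.31 and 1.35 on the log2 scale (limma adjusted p = 0.00540 and 0.00556). Its counts were 486, 487 and 591 at RT and 240.4, 164 and 229.8 after cold exposure in Atf4WT iWAT, and 574, 430.1 and 460.2 and then 208, 115 and 282 in Atf4AKO iWAT, so all cold-exposed libraries lay below all RT libraries. Cers5, another ceramide synthase, fell by 0.24 in Atf4WT iWAT (limma adjusted p = 0.0180), a call lost under 4 of 22 alternatives that kept the call rule. It did not pass in Atf4AKO iWAT (−0.003, limma adjusted p = 0.979), and neither did the difference between these responses (0.23, limma adjusted p = 0.599). The acyl-CoA synthetase genes Acsl1 (0.66 and 0.73) and Acsl4 (0.42 and 0.59) rose in both genotypes, and Acsl3 passed in Atf4AKO iWAT (0.93, limma adjusted p = 0.0317; Atf4WT 0.60, limma adjusted p = 0.124).

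Of 4 further desaturase genes tested, none passed in Atf4AKO iWAT, against 25.9% of all genes. Degs2, which hydroxylates and desaturates ceramides, rose in Atf4WT iWAT as the only one of them to pass, against 31.9% of all genes. Its counts there were 58.8, 48.1 and 135 at RT and 201, 293 and 450.1 after cold exposure, and in Atf4AKO iWAT 64.1, 47.8 and 135 and then 134, 70.3 and 81.7. Cold-exposed Atf4WT libraries were the highest, and the Atf4AKO groups overlapped. The log2 fold change was 2.02 (limma adjusted p = 0.00876) in Atf4WT and 0.29 (limma adjusted p = 0.680) in Atf4AKO iWAT, and neither the genotype difference after cold exposure (−1.69, limma adjusted p = 0.131) nor the difference of the responses (−1.73, limma adjusted p = 0.599) passed in limma. Both passed the DEG threshold (unadjusted p = 0.00440 and 0.0257), and DESeq2 called the genotype difference after cold exposure (−1.72, adjusted p = 0.0131), where the libraries of the genotypes did not overlap. With the lymphocyte score as a covariate that difference was 0.37 and was not called. The lymphocyte score was also highest in the cold-exposed Atf4WT libraries, and with it as a covariate the Atf4WT call on Degs2 was lost (limma adjusted p = 0.628). In both comparisons the score did not overlap between the groups, so these fits separate it from genotype or temperature poorly. Scd3, Fads6 and Degs1 did not pass an adjusted p of 0.05 in limma in either genotype. Fads6 passed the DEG threshold in Atf4AKO iWAT (−0.92, unadjusted p = 0.0465, limma adjusted p = 0.122) and was called there without Atf4AKO cold replicate 2 (−1.41, limma adjusted p = 0.0187). Its level was low, with means of 17.7 normalized counts at RT and 10.1 after cold exposure in Atf4AKO iWAT, and these libraries overlapped.

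Over all 39 pathway genes tested beside the 10, 14 were higher and 2 lower in Atf4WT, and 15 higher and 1 lower in Atf4AKO iWAT, with medians of 0.23 and 0.19. Over all 13404 genes the shares were 17.0% higher and 14.9% lower in Atf4WT and 14.8% and 11.0% in Atf4AKO iWAT, with medians of 0.00 and −0.03. The lists were chosen with earlier results of these data known, so these counts and those of the single lists are given as a description. The calls coincided for 13 higher genes and 1 lower gene. Of the 16 calls in each genotype, 8 held under all 22 alternatives that kept the call rule. These were Hsd17b12, Hacd1, Cyb5b, Acacb, Ppara and Cers6 in both genotypes, Hacd3 and Thrsp in Atf4WT, and Mlxipl and Acsl4 in Atf4AKO iWAT. The Atf4WT call on Mlxipl was lost with the lymphocyte score alone (limma adjusted p = 0.115), and the Atf4AKO call on Thrsp (limma adjusted p = 0.0460) under 12 alternatives. The remaining calls were lost under 1 to 8 alternatives.

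**Figure D5:**
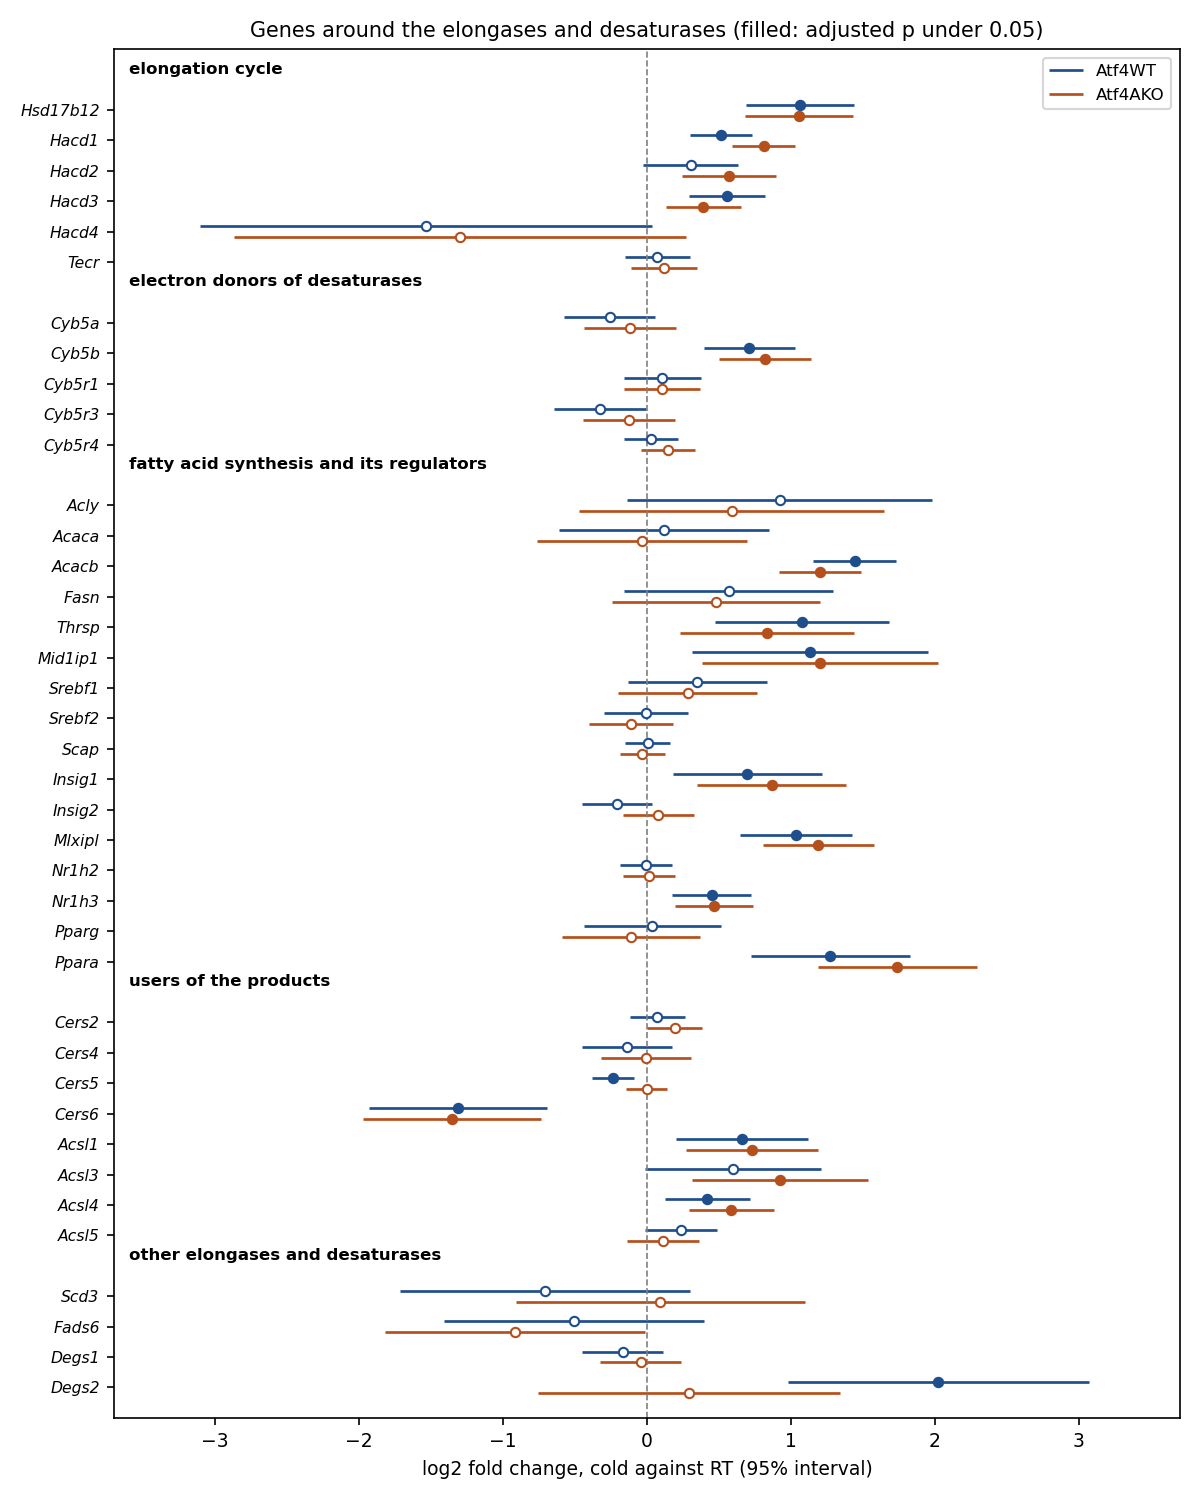
Log2 fold change of cold exposure against RT (x axis) with 95% intervals from limma for the 39 pathway genes (y axis, grouped by role) in Atf4WT and Atf4AKO iWAT, filled where adjusted p was under 0.05. The group headed users of the products holds the ceramide synthase and acyl-CoA synthetase genes. Hsd17b12, Acacb, Mlxipl and Ppara are filled to the right of 0 in both genotypes, Cers6 to the left in both, and Degs2 to the right in Atf4WT alone.

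The genes with the most similar course over the 12 libraries were sought among the 11842 genes that averaged 50 normalized counts or more, by the root mean square difference of centred log2 values. For Elovl3 they were Ucp1, the uncoupling protein gene of thermogenic adipocytes (0.49), Dio2, which encodes a thyroid hormone deiodinase (1.28), and Fabp3, a fatty acid binding protein gene (1.53). For Elovl6 they were Fdps (0.15) and Lss (0.16), enzymes of cholesterol synthesis, and Pgd (0.16), an NADPH-making enzyme of the pentose phosphate pathway. For Scd1 they were Hapln3 (0.27), Tdrp (0.31) and Lgals1 (0.31). The profiles share the libraries and their size factors, so they are given as a description.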

How the data were processed

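The deposited values are a normalized signal: per the methods, the authors cleaned the reads (SOAPnuke), aligned them to mm10 (STAR), assigned unique alignments to genes (featureCounts) and divided the counts by DESeq2 size factors (pyDESeq2). The tool versions and the strand setting are not given in the sources used here. Division by the value of 1 read returned whole reads (largest deviation 0.000313 reads), and each listed gene had at least 1 read in each library, with replicates of a group differing by more than sampling noise (chi-square per degree of freedom 34.5 to 69.8).

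limma 3.58.1 in R 4.3.3 was fitted (4 group means, eBayes with a variance trend) to log2(normalized count + 1), and 13404 genes that averaged 10 or more over the libraries entered. Fold changes of low genes are understated on this scale. Benjamini-Hochberg adjustment covered all genes tested, and 95% intervals are from this fit. The replicate numbers were not treated as pairs, since the correlations of same-numbered libraries ran from −0.19 to 0.39. For replicate 1 they exceeded those with other numbers in every pair of groups compared (0.20 to 0.39). For replicate 0 this was never so, and for replicate 2 only between the genotypes at RT. What the numbers stand for beyond biological replicates is not given. Transcript lengths and gene positions came from GENCODE (mm10), promoters from RefSeq (GRCm38.p6).

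Results were recomputed with pseudocounts of 0.5 and 5, without a filter, with a filter at a mean of 50, 75th percentile scaling, edgeR 4.0.16 and DESeq2 1.42.0 on the recovered reads, a replicate block, a lymphocyte score as covariate, models of 2 groups, the DEG threshold (fold change over 1.5, unadjusted p under 0.05) and leaving out each library. The tests were checked on simulated reads, in which 200 genes were changed 3-fold between cold exposure and RT in Atf4WT. Of the changed genes tested, limma called 164 of 197, edgeR 165 of 197 and DESeq2 177 of 200. They also called 13, 11 and 35 unchanged genes, so DESeq2 made the most false calls. The genes and lists were chosen with earlier results of these data known. The genes named are the 10 chosen ones and pathway genes that passed in either cold comparison or on whose step the 10 depend. Of the 48 pathway genes 44 were listed and 39 passed the filter, and nothing is said here of the others.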

Additional observations from a re-analysis of the deposited data

How the results depend on the processing

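The counts among the 10 genes (3 in each cold comparison and 0 in the genotype comparisons and the interaction) stayed within 1.5 times of these values under every alternative run, between 2 and 3 for the cold comparisons and at 0 otherwise. Leaving out 1 library gave 3 in Atf4WT and 2 to 3 in Atf4AKO iWAT. The DEG threshold gave 2 in each, Elovl3 and Fads3. The replicate block left them at 3, 3, 0, 0 and 0. The labels give same-numbered libraries nothing in common beyond the number, so the block is not read further. Over all genes it moved the calls for Atf4AKO against Atf4WT after cold exposure from 4 to 189 and at RT from 1 to 3. Over all genes, other settings moved counts by more than 1.5 times: Atf4WT cold exposure, 4273 to 1782 with the lymphocyte score and 2846 at the DEG threshold; Atf4AKO cold exposure, 3467 to 2210.0 without Atf4AKO RT replicate 0, 2281 without cold replicate 1 and 2309 at the DEG threshold; genotypes after cold exposure, 4 to 591 with DESeq2, 146 without Atf4WT RT replicate 2, 517 without Atf4WT cold replicate 0, 2 without Atf4WT cold replicate 1, Atf4AKO cold replicate 0 or 2, 0 with the lymphocyte score or in the model of 2 groups, and 858 at the DEG threshold; genotypes at RT, 1 to between 1 and 4, and 62 at the DEG threshold; interaction, 0 to 128 with DESeq2, 65 without Atf4WT cold replicate 0 and 621 at the DEG threshold. Of 2995 fold changes of single genes recomputed, 92 lost a call, 8 gained one, and 119 changed sign without being called on either side. With the lymphocyte score, which did not overlap between the genotypes after cold exposure, the genotype difference of Elovl3 there moved from 0.21 to −1.63 without passing. The cause of these moves was not tested. Elovl7 and, at RT, Elovl3 had few reads, so counting error is larger for them than for the other 8 genes.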
